A study of Mus musculus with 8 samples.

Results

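Oxidative phosphorylation genes were followed across islet cell types from FAKi-treated and vehicle-treated mice, with the subunits encoded in mitochondrial DNA kept apart from those encoded in the nucleus. The members were all rows of the count table whose symbol begins with mt-, Ndufa, Ndufb, Ndufc, Ndufs, Ndufv, Uqcr or Atp5, or with Cox followed by a digit from 4 to 8. This gave 102 of 19945 genes, of which 13 are mitochondrial-encoded genes, 81 are nuclear subunits and 8 are Ndufaf genes, which encode assembly factors of complex I. The nuclear subunits divide by name into 39 of complex I, 8 of complex III, 17 of complex IV and 17 of ATP synthase. Ndufa4 was counted with complex I by its name, although its protein is known as a subunit of complex IV.

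Single-cell 3′ RNA-seq libraries were made from islets of wild-type mice, whose strain was not given for this experiment. One cohort received the focal adhesion kinase inhibitor PF562271 (FAKi) at 50 mg/kg by oral gavage with 2 doses per day for 3 weeks, and the other received vehicle on the same schedule. Islets were isolated 10 days after the last dose and handpicked, and the islets of 5 mice were pooled in each cohort, so each condition was 1 library, read in 4 lanes. Library and condition therefore cannot be told apart, no test between conditions was possible and no p-value is given.

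The table held 3776 vehicle and 3183 FAKi cells, against 8832 and 8437 cells loaded. Totals were 59514118 and 57836783 UMIs, with a median of 10101.5 and 13688 UMIs per cell, and 4 cell barcodes occurred in both libraries. The authors' annotation gave 17 clusters in 12 cell classes, and the 10 classes with at least 50 cells in each library were compared. T cells (168 vehicle and 28 FAKi cells) and B cells (113 and 9) were left out. The markers of β-cells, α-cells, δ-cells, ductal cells, endothelial cells and macrophages were each summed highest in the class of that name. Acinar markers were highest in acinar cluster 2, and the cells labelled δ included cluster 8, in which Ppy (278292 CPM in the vehicle library) exceeded Sst (6909 CPM). The cells labelled α included cluster 9, which mixed Gcg, Sst and Ppy at 147656, 58407 and 62348 CPM in the vehicle library.

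Oxidative phosphorylation passes electrons from nutrients along complexes I, III and IV of the inner mitochondrial membrane, and ATP synthase uses the proton gradient that this creates. Every one of these complexes joins subunits made inside the mitochondrion with subunits made in the cytosol and imported. In β-cells the ATP made from glucose closes potassium channels and triggers insulin secretion, which gives this pathway a direct part in glucose sensing. Mitochondrial mRNAs are cut from long transcripts of the whole circular genome, while each nuclear subunit has a promoter of its own.

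The mitochondrial genome packs its genes so tightly that 3 pairs of members share bases on the same strand. mt-Atp6 and mt-Co3 share 1 base, and the ends of the other two pairs are shown because reads from the shared stretch cannot be assigned to 1 gene by sequence alone. The first pair below is mt-Atp8 and mt-Atp6, at chrM:7910-7969 and chrM:7927-7986, and the second is mt-Nd4l and mt-Nd4, at chrM:10114-10173 and chrM:10167-10226 (GRCm38, plus strand). Capitals mark the shared bases, 43 in the first pair and 7 in the second.
mt-Atp8, end of the gene: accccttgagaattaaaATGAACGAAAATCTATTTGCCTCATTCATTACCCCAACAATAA
mt-Atp6, start of the gene: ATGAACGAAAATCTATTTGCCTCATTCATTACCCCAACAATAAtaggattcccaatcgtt
mt-Nd4l, end of the gene: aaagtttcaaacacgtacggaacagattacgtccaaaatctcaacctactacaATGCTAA
mt-Nd4, start of the gene: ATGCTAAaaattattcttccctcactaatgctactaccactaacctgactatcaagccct

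Values of mt-Atp8 and mt-Nd4l, which are short genes of 204 and 297 bases in front of much more abundant neighbours, are uncertain for that reason. mt-Nd5 (chrM:11742-13565, plus strand) overlaps mt-Nd6 (chrM:13552-14070, minus strand) at its end.

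Some nuclear members carry promoter motifs, which the choice by symbol did not use. RefSeq promoter windows (GRCm38.p6) were matched for 65 of the 81 nuclear subunits and searched on both strands. The core of the NRF-1 site, GCATGCGC, occurred in 9 of the 65 (13.8%) against 824 of 27025 genes (3.05%). The ETS core bound by GABP, CCGGAAG, occurred in 15 (23.1%) against 2683 (9.93%), and the cyclic AMP response element, TGACGTCA, in 4 (6.15%) against 549 (2.03%). NRF-1 and GABP are known activators of respiratory chain genes. Below are the 200 bases before the start of 4 members described in the results, all on the minus strand, with capitals marking matches. Atp5k, at chr5:108434400-108434599, and Cox6a1, at chr5:115348959-115349158, carry an NRF-1 core, and Cox6a1 an ETS core as well. Ndufs5, at chr4:123718187-123718386, and Cox7a2, at chr9:79759854-79760053, hold none of these letters in this window.
Atp5k: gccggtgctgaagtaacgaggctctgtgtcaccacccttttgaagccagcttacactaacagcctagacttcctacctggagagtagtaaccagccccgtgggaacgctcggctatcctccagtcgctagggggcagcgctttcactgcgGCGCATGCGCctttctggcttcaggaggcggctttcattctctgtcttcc
Cox6a1: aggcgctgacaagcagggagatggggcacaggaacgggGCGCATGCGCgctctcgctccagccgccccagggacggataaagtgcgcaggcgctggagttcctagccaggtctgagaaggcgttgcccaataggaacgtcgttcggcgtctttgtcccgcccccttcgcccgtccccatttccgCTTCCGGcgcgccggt
Ndufs5: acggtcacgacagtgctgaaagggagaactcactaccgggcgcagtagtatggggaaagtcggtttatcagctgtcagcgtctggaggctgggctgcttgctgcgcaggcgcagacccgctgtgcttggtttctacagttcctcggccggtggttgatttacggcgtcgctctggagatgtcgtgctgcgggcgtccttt
Cox7a2: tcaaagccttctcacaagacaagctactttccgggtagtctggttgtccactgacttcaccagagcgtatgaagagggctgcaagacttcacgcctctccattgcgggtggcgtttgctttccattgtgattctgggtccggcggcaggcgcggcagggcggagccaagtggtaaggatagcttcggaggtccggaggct

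The share of all UMIs that fell on the 13 mitochondrial-encoded genes differed far more between cell classes than between the libraries. It was lowest in acinar cluster 2, at 0.984% of the pooled UMIs with vehicle and 0.770% with FAKi. It was highest in pericytes with vehicle, at 5.65% (5.01% with FAKi), and in α-cells with FAKi, at 5.14% (5.0% with vehicle). The remaining classes were acinar cluster 1 (3.15% and 3.23%), δ-cells (3.93% and 3.77%), β-cells (4.18% and 4.10%), endothelial cells (4.33% and 3.81%), macrophages (4.43% and 4.22%), ductal cells (4.85% and 4.54%) and fibroblasts (5.13% and 4.64%). The 95% counting interval of the β-cell value ran from 4.17% to 4.19% in the vehicle library, so counting error was small beside the differences between classes. Intervals throughout cover counting error only, which leaves out the variation between mice. Cells with 8% or more mitochondrial UMIs had been removed by the authors, so every such share is cut off from above.

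The nuclear subunits kept another order. In the vehicle and FAKi libraries they took 0.462% and 0.501% of the total for acinar cluster 2, 0.680% and 0.745% for acinar cluster 1, and 0.983% and 1.05% in β-cells. They reached 1.85% and 1.95% in ductal cells and 1.86% and 1.95% in pericytes. β-cells thus carried a low nuclear share with an intermediate mitochondrial one, and the plot of both shares by class shows the 10 classes in each library. The counts of insulin, glucagon and digestive enzyme mRNAs enter the denominator of these shares.

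**Figure D1:**
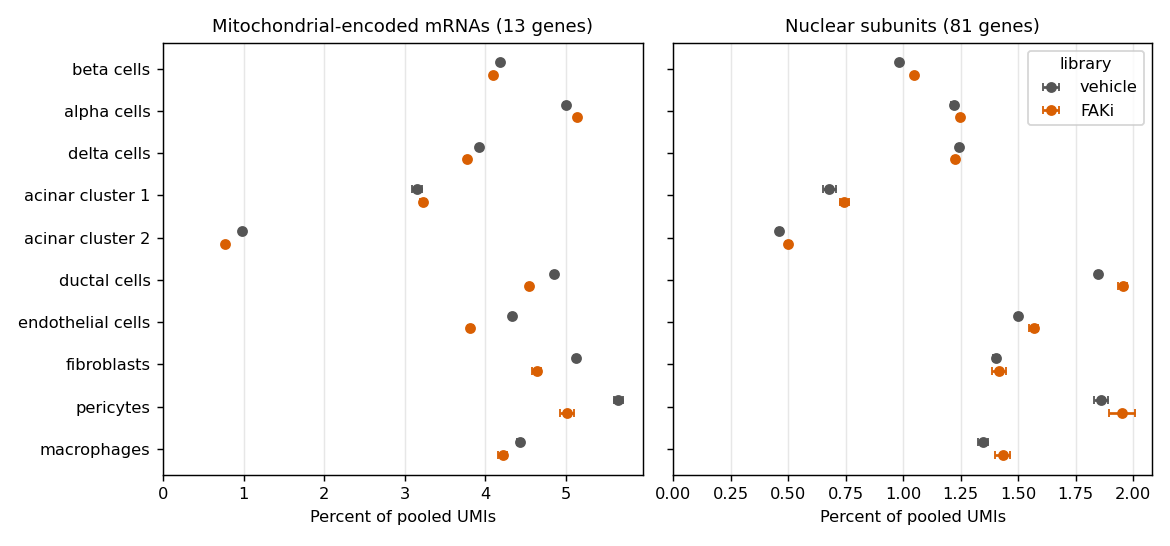
Percent of the pooled UMIs of each cell class that fell on the 13 mitochondrial-encoded genes (left) and the 81 nuclear subunits (right). The vehicle library is grey, the FAKi library is orange, and bars are 95% exact counting intervals. The FAKi point lies left of the vehicle point for the mitochondrial share in 8 of 10 classes, and right of it for the nuclear share in every class but δ-cells (with an interval that includes 1 in fibroblasts); other settings turned the mitochondrial direction in β-cells, α-cells and acinar cluster 1 and the nuclear direction in α-cells, δ-cells, fibroblasts and both acinar clusters.

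In β-cells (1076 vehicle and 1336 FAKi cells) the mitochondrial-encoded sum was 0.981 times the vehicle level in the FAKi library (interval 0.979 to 0.983) and the nuclear sum was 1.06 times (1.06 to 1.07). The direction of the mitochondrial difference depended on the scaling: its log2 ratio was -0.03, and 0.02 when CPM were computed without the 20 most abundant genes, 5 of which are mitochondrial genes. By cluster the mitochondrial share was lower in β-cell cluster 0 (4.26% and 4.14% of UMIs) and higher in cluster 10 (4.10% and 4.24%). In cluster 1 it was nearly level (3.96% and 3.98%), and the counting intervals of these shares overlapped. The nuclear sum was higher under each setting tried. In α-cells (273 and 434 cells) the mitochondrial sum was 1.03 times and the nuclear sum 1.02 times the vehicle level, and both log2 ratios turned below 0 without the 20 most abundant genes, to -0.01 and -0.02.

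The number of mitochondrial-encoded UMIs for each nuclear subunit UMI does not depend on the denominator. In β-cells it was 4.25 with vehicle and 3.92 with FAKi, a ratio of 0.922 (0.917 to 0.927). It was 4.10 and 4.12 in α-cells, a ratio of 1.01 (0.993 to 1.02). The interval lay below 1 in 9 of the 10 classes, α-cells being the exception. With each nuclear member left out in turn it stayed below 1 in 8, and in acinar cluster 1 its upper bound then reached 1.01. Ratios were 0.975 in δ-cells, 0.933 in acinar cluster 1, 0.723 in acinar cluster 2, 0.887 in ductal cells, 0.843 in endothelial cells, 0.896 in fibroblasts, 0.845 in pericytes and 0.895 in macrophages. With each cell thinned to 1000 UMIs the ratio was below 1 in 7 classes, the exceptions then being α-cells (1.03), acinar cluster 1 (1.06) and acinar cluster 2 (1.07). With a mean over cells in place of pooled counts it was below 1 in 8. Within β-cells the ratio was 0.923 in cluster 0, 0.927 in cluster 1 and 0.969 in cluster 10. The δ class was split, with 1.03 (1.02 to 1.05) in the Sst-rich cluster 6 and 0.907 in the Ppy-rich cluster 8.

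Cells were spread widely within each class. The median β-cell had 4.06% mitochondrial UMIs with vehicle and 3.92% with FAKi, and the middle range (the central quartiles) ran from 3.11% to 5.45% and from 2.98% to 5.47%. The median α-cell had 5.11% and 5.29%. Cells between 7% and 8%, next to the limit of the filter, were 6.88% and 7.56% of β-cells, 12.5% and 14.1% of α-cells and 19.0% and 7.81% of pericytes. In acinar cluster 1 they were 4.97% and 12.1% of cells. With a stricter limit of 5%, the FAKi over vehicle ratio of mitochondrial UMIs for each nuclear subunit UMI went from 0.845 to 0.965 in pericytes, from 0.896 to 0.992 in fibroblasts and from 0.922 to 0.904 in β-cells, and was below 1 in 9 of 10 classes. Across β-cells the mitochondrial share ran weakly against the UMIs of a cell (Spearman's rho -0.14 in 1076 vehicle cells and -0.26 in 1336 FAKi cells), with the cell's UMIs also the denominator of the share.

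**Figure D2:**
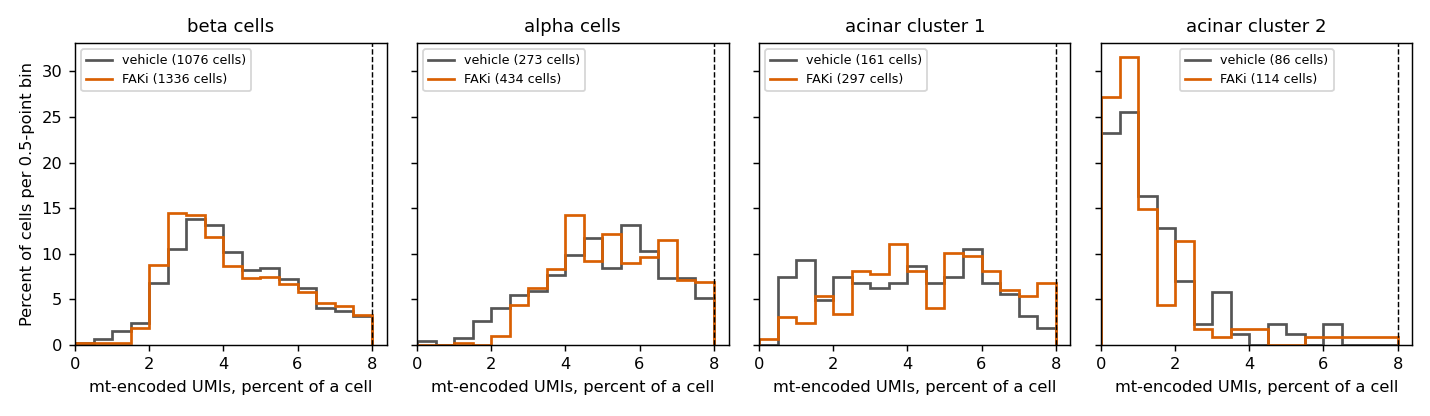
Distribution over single cells of the mitochondrial-encoded share of UMIs (horizontal axis, percent of a cell's UMIs; vertical axis, percent of cells in each bin) in 4 classes, with the vehicle library in grey and the FAKi library in orange; the dashed line marks the authors' limit of 8%. β-cells peak well below the limit, α-cells and acinar cluster 1 run into it, and acinar cluster 2 lies mostly below 2%.

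The 13 mitochondrial genes did not move together. Of the 7 complex I subunits in β-cells, mt-Nd1 was lower in the FAKi library (1843 CPM in vehicle and 1492 CPM in FAKi, ratio 0.809, 0.800 to 0.819), as was mt-Nd3 (264 and 214 CPM, ratio 0.812). mt-Nd2 was slightly lower (2089 and 2008 CPM, ratio 0.961), although it was higher in cluster 10 (ratio 1.06, 1.02 to 1.10), and mt-Nd6, the only one on the minus strand, was within counting error (20.3 and 18.4 CPM, ratio 0.906, 0.814 to 1.01). By contrast mt-Nd4 (2296 and 2414 CPM, ratio 1.05), mt-Nd5 (285 and 346 CPM, ratio 1.21, 1.18 to 1.25) and mt-Nd4l (76.1 and 110 CPM, ratio 1.45, 1.38 to 1.52) were higher. One complex thus held members on either side of 1.

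The other complexes were less divided in β-cells. mt-Cytb, the only mitochondrial-encoded subunit of complex III, was at 5331 and 5245 CPM (ratio 0.984), and within counting error in cluster 10 (ratio 0.997, 0.976 to 1.02). Of the 3 catalytic core subunits of complex IV, mt-Co1 (6281 and 5630 CPM, ratio 0.896) and mt-Co3 (8025 and 7510 CPM, ratio 0.936) were lower. Both were within counting error in cluster 10, mt-Co1 at a ratio of 0.990 (0.970 to 1.01). mt-Co2 was higher (6583 and 6788 CPM, ratio 1.03). Both ATP synthase subunits were higher, mt-Atp6 at 8659 and 9181 CPM (ratio 1.06) and mt-Atp8 at 41.4 and 52.8 CPM (ratio 1.27). The interval lay above 1 for 6 of the 13 mitochondrial genes and below 1 for 6. It excluded 1 for 36.4% of all β-cell genes with 100 or more UMIs over both libraries, the minimum for every such count. Both directions were thus present in equal number by gene. Of those above 1, mt-Nd4l shares bases with mt-Nd4 and mt-Atp8 with mt-Atp6, so these are not fully separate counts.

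In α-cells the 2 highest members had larger ratios than in β-cells. mt-Nd4l was at 108 and 187 CPM (ratio 1.73, 1.54 to 1.94), and mt-Nd5 at 353 and 568 CPM (ratio 1.61, 1.51 to 1.72). They were the mitochondrial members of α-cells past 1.5-fold, a limit applied to the log2 ratio after adding 1 CPM, which 4.09% of α-cell genes passed. mt-Nd1 (2844 and 2753 CPM, ratio 0.968) and mt-Co1 (6444 and 6174 CPM, ratio 0.958) were slightly lower. The interval lay above 1 for 8 mitochondrial members and below 1 for 4 of 13, with 19.9% of all α-cell genes excluding 1.

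Across the 10 classes 5 mitochondrial genes kept a direction in at least 8 by their intervals. mt-Nd1 was lower in 10 of 10, with ratios from 0.661 in acinar cluster 2 to 0.968 in α-cells, and mt-Co1 was lower in 10 of 10, from 0.709 in acinar cluster 2 to 0.958 in α-cells. mt-Co3 was lower in 9 and mt-Nd3 in 8, while mt-Nd5 was higher in 8, its ratio running from 0.975 in acinar cluster 2 to 1.62 in acinar cluster 1. Of 280 genes with at least 100 UMIs in every class, 41 of them members, such an interval on 1 side in at least 8 classes was found for 17.1%, and a ratio on 1 side in all 10 classes for 13.9%. The members with a ratio on 1 side in all 10 were mt-Nd1, mt-Nd3, mt-Co1, mt-Co3 and the nuclear Cox7a2. Under the other settings the ratio of mt-Nd1 and mt-Co1 was below 1 in at least 9 classes, that of mt-Nd3 and mt-Co3 in at least 8, and that of mt-Nd5 above 1 in at least 9.

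Other genes kept a direction across the classes in the same way, and they are given here although they were chosen after their values were seen. The non-coding Gm42418 (3267 and 3319 CPM in β-cells, ratios 1.02 to 1.62 over the classes), AY036118 (109 and 174 CPM, 1.60 to 3.42) and Lars2 (141 and 160 CPM, 1.14 to 2.62), which encodes the mitochondrial leucyl-tRNA synthetase, were higher in the FAKi library in 10 of 10 classes. The small ribosomal protein genes Rpl37 (0.682 to 0.904), Rps28 (0.617 to 0.888) and Rps29 (0.704 to 0.902) were lower in 10 of 10, as were further ribosomal protein genes such as Rps21 and Rpl39. Rpl26, another ribosomal protein gene, was higher in 10 of 10, as were the β-cell gene Iapp and the acinar genes Ctrc and Try5. The heat-shock genes Hspa1a, Hspa1b and Dnajb1 were also higher in 10 of 10. Whether a difference shared by the classes belongs to the library or to the treatment cannot be told apart.

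**Figure D3:**
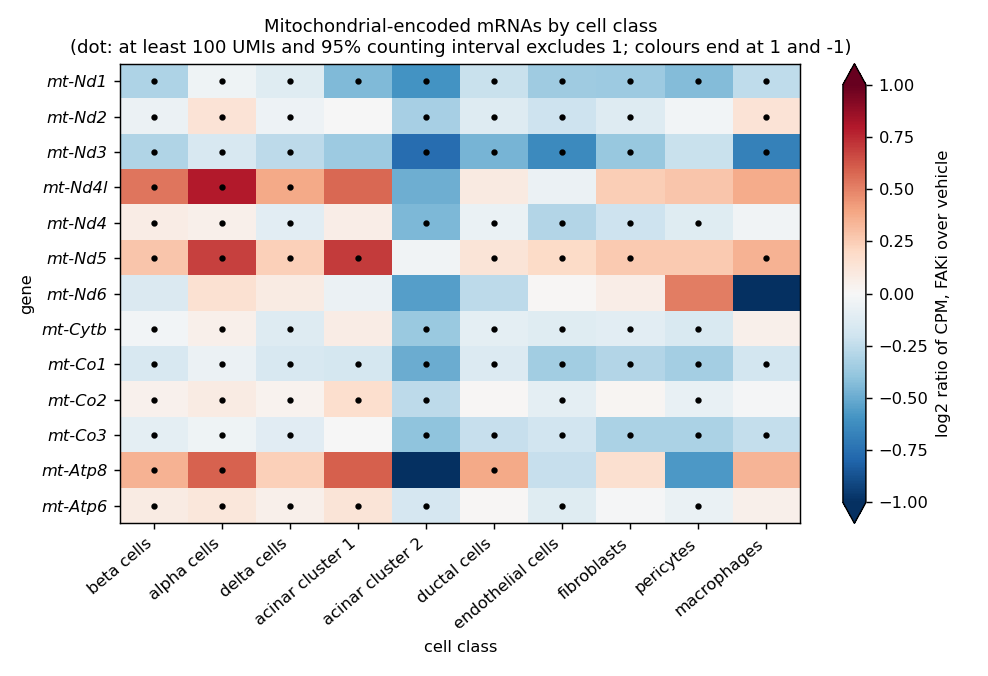
Log2 ratio of CPM, FAKi over vehicle, for the 13 mitochondrial-encoded genes (rows) in the 10 cell classes (columns). Blue is lower and red is higher in the FAKi library. A dot marks at least 100 UMIs and a 95% counting interval that excludes 1. The rows of mt-Nd1 and mt-Co1 are blue in 10 of 10 columns, mt-Nd5 is red in 9 of 10, and the column of acinar cluster 2 is blue throughout.

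The classes outside the endocrine cells had lower mitochondrial sums in the FAKi library, with acinar cluster 1 as the exception. The ratio was 0.938 in ductal cells, 0.880 in endothelial cells, 0.905 in fibroblasts, 0.886 in pericytes and 0.951 in macrophages. It was 0.960 in δ-cells, with shares nearly level in the Sst-rich cluster 6 (3.83% and 3.82%) and lower in the Ppy-rich cluster 8 (4.02% and 3.73%). These sums stayed below 1 under each setting, although in fibroblasts the log2 ratio of -0.14 shrank to -0.0062 without the 20 most abundant genes. In endothelial cells mt-Nd3 was at 340 and 219 CPM (ratio 0.645) and mt-Co1 at 5841 and 4588 CPM (ratio 0.785), and in macrophages mt-Nd3 was at 387 and 242 CPM (ratio 0.625). mt-Nd3 was the 1 mitochondrial member with enough UMIs past 1.5-fold in each of those 2 classes, against 8.58% of all genes in endothelial cells and 16.2% in macrophages.

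By intervals, the mitochondrial members below 1 outnumbered those above in these classes. They were 7 below and 4 above of 13 in δ-cells, where 18.2% of all genes excluded 1, and 7 and 2 of 13 in ductal cells, where 23.7% did. They were 9 and 1 of 13 in endothelial cells (22.4% of all genes), 7 and 1 of 12 in fibroblasts (23.6%), 7 and 0 of 11 in pericytes (20.9%) and 4 and 2 of 12 in macrophages (29.6%). The share of mitochondrial members with such intervals was above that of all genes in each of these 6 classes, and these mRNAs are also among the most deeply counted, which makes their intervals narrow.

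In β-cells complex I was higher in the FAKi library. Its 39 nuclear subunits summed to 3917 CPM with vehicle and 4372 CPM with FAKi, a ratio of 1.12 (1.11 to 1.12). With each of these members left out in turn this ratio ran from 1.05 to 1.13, and that of the whole nuclear sum from 1.04 to 1.07. Complex III was level at 913 and 912 CPM (ratio 0.999, 0.984 to 1.01). Complex IV was at 2136 and 2250 CPM (ratio 1.05) and ATP synthase at 2868 and 2932 CPM (ratio 1.02). The 8 assembly factors of complex I were level in sum (ratio 1.01, 0.972 to 1.06). The median nuclear member had a log2 ratio of 0.05 while the median of all genes was -0.04, so many members shared the direction of the nuclear sum.

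By single members the β-cell intervals lay above 1 for 32 of 75 nuclear subunits and below 1 for 11, with 36.4% of all genes excluding 1. This was 18 above and 5 below of 38 in complex I, 1 and 2 of 8 in complex III, 7 and 1 of 12 in complex IV and 6 and 3 of 17 in ATP synthase. None of the 75 passed 1.5-fold, where 2.34% of all β-cell genes did.

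**Figure D4:**
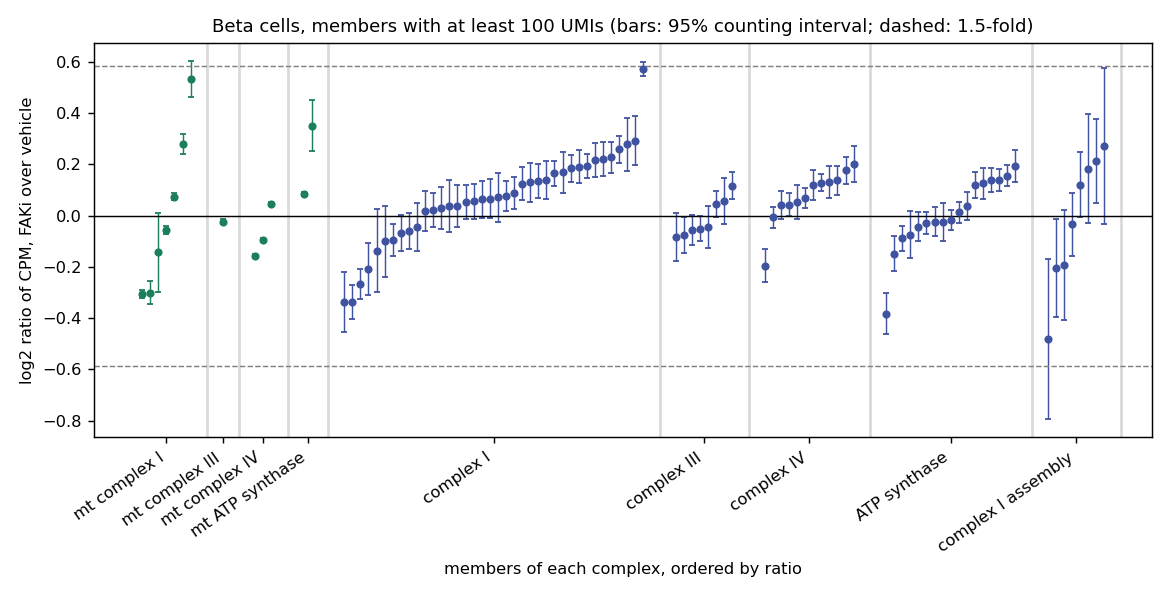
Log2 ratio of CPM, FAKi over vehicle, in β-cells for each member with at least 100 UMIs, grouped by complex and ordered by ratio, with mitochondrial-encoded members in green, nuclear members in blue, bars for 95% counting intervals and dashed lines at 1.5-fold. Points of nuclear complex I lie mostly above 0, and mt-Nd4l is the highest of the mitochondrial-encoded members.

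RNA of the insulin gene Ins2 was counted in each class. It was higher in the FAKi library in 8 of the 9 classes other than β-cells (ratios 0.623 to 2.23), being lower in δ-cells. It was at 103583 and 173097 CPM in acinar cluster 1, 36727 and 55361 CPM in endothelial cells and 16470 and 36697 CPM in ductal cells. Within endothelial cells it was higher in cluster 3 (40131 and 66158 CPM) and lower in cluster 11 (30748 and 4031 CPM, from 172 and 40 cells). Within δ-cells it was higher in the Sst-rich cluster 6 (2024 and 3101 CPM) and lower in the Ppy-rich cluster 8 (13870 and 6675 CPM). Cox6a2, a member that was highest in β-cells, was higher in the FAKi library in 5 of the 9. It held fewer than 100 UMIs over both libraries in each of the 9, so no conclusion is drawn from its directions. Free RNA, doublets and expression in these cells were not separated. The part of β-cell RNA in the member values of other classes was not tested.

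Named complex I members of β-cells moved both ways. Among accessory subunits, Ndufb6 (ratio 1.22) and Ndufb9 (ratio 1.20) were higher in the FAKi library, as was the iron-sulphur subunit Ndufs8 (ratio 1.21) and Ndufs5 (116 and 136 CPM, ratio 1.17). Ndufa3 (37.3 and 29.5 CPM, ratio 0.791), Ndufv3 (145 and 121 CPM, ratio 0.830) and Ndufb1-ps (113 and 89.2 CPM, ratio 0.791) were lower. Ndufb1-ps carries a non-coding label in the annotation used here and was counted with complex I by its symbol. Whether its RNA yields a protein was not tested.

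In complex III, Uqcrh, which binds cytochrome c1, had the highest ratio in β-cells (157 and 170 CPM, ratio 1.08), and the core subunit Uqcrc1 the lowest (52.1 and 49.1 CPM, ratio 0.944, 0.884 to 1.01). In complex IV the highest was Cox5a (86.4 and 99.4 CPM, ratio 1.15), beside Cox7a2 (151 and 171 CPM, ratio 1.13) and Cox8a (382 and 418 CPM, ratio 1.09), and the widely expressed Cox4i1 was at 266 and 279 CPM (ratio 1.05). In ATP synthase the c-ring gene Atp5g3 had the highest ratio (105 and 120 CPM, ratio 1.14) and Atp5k, subunit e of the membrane part, the lowest (79.4 and 60.9 CPM, ratio 0.767, 0.725 to 0.811). These differences were all within 1.5-fold.

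Cox7a2, Ndufs5 and Atp5k each differed in 1 direction in the classes where they had at least 100 UMIs, although none of the 3 did so with cells thinned to 1000 UMIs. Ndufa3 (lower in 7 of 7 classes), Ndufb4 (higher in 8 of 8) and the assembly factor Ndufaf4 (higher in 5 of 5) also kept 1 direction. Of 31 nuclear members with at least 100 UMIs in all 10 classes only Cox7a2 did, beside 13.9% of all genes. For genes counted in fewer classes the share over all genes was not computed. Cox7a2 was higher in the FAKi library in 10 of 10 classes (ratios 1.03 to 1.66), with an interval above 1 in 4, but in 7 of 10 with thinned cells and 8 of 10 in cells with at least 1000 detected genes. Ndufs5 was higher in 9 of 9 (1.03 to 1.38) with an interval above 1 in 6, and in 6 of 9 with thinned cells. Atp5k was lower in 9 of 9 (0.632 to 0.930) with an interval below 1 in 5, and in 7 of 9 with thinned cells, and the intervals of Ndufa3, Ndufb1-ps and Atp5md each lay below 1 in 5 as well. Of the 4 promoters printed above, those of Atp5k and Cox6a1 carried the NRF-1 core and those of Ndufs5 and Cox7a2 did not. Cox6a1 was higher in 5 of 9 classes and lower in 4, and a link between motif and direction was not tested.

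In α-cells the nuclear members were close to level, with complex I at 1.01 (0.987 to 1.03), complex III at 1.07, complex IV at 1.05 and ATP synthase at 1.00 times the vehicle sum. Intervals lay above 1 for 14 of 74 nuclear members and below for 7, with 19.9% of all genes excluding 1. The highest in each complex were Ndufb9 (140 and 167 CPM, ratio 1.19), the Rieske iron-sulphur protein Uqcrfs1 (94.2 and 119 CPM, ratio 1.26), Cox5a (52.5 and 66.1 CPM, ratio 1.26) and Atp5c1 (210 and 243 CPM, ratio 1.16). The lowest were Ndufa3 (68.9 and 49.6 CPM, ratio 0.720), Uqcrc2 (ratio 0.859), Cox6c (ratio 0.939, 0.867 to 1.02) and Atp5k (ratio 0.839). Cox5a and Atp5k were thus the extremes of complex IV and ATP synthase at the same ends as in β-cells.

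δ-cells had more nuclear members below 1 (13 of 74) than above (3), with 18.2% of all genes excluding 1, and their nuclear sum was 0.985 times the vehicle level (0.974 to 0.996), although its log2 ratio of -0.02 turned to 0.05 with cells thinned to 1000 UMIs. The nuclear share was lower in the Sst-rich cluster 6 (1.42% and 1.37% of UMIs) and higher in the Ppy-rich cluster 8 (1.07% and 1.10%). Atp5k (105 and 76.0 CPM, ratio 0.724) and Ndufb1-ps (151 and 113 CPM, ratio 0.752) were lowest. The assembly factor Ndufaf4 (16.1 and 24.9 CPM, ratio 1.55) was the member past 1.5-fold, where 3.12% of all genes were, and its direction turned when cells were thinned to 1000 UMIs, to a log2 ratio of -0.12.

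Ductal cells had 26 of 74 nuclear members above 1 and 3 below, with 23.7% of all genes excluding 1. Atp5g1, a second c-ring gene, was at 315 and 398 CPM (ratio 1.26) and Cox8a at 520 and 593 CPM (ratio 1.14). The assembly factor Ndufaf7 (26.6 and 41.4 CPM, ratio 1.56) passed 1.5-fold, with 7.29% of all genes. Endothelial cells had 12 of 74 nuclear members above 1 and 6 below, close to the 22.4% of all genes excluding 1, and the assembly factor Ndufaf8 (52.1 and 30.6 CPM, ratio 0.588) was past 1.5-fold.

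The smaller classes carried wider error. In fibroblasts 2 nuclear members lay above 1 and 7 below of 75, with 23.6% of all genes excluding 1, and Ndufa3 (64.3 and 30.8 CPM, ratio 0.479) passed 1.5-fold, as did 16.1% of all genes. In pericytes 2 lay above and 2 below of 70, with 20.9% of all genes excluding 1, and Atp5md (130 and 68.5 CPM, ratio 0.525) passed it with 13.1% of all genes. In macrophages 8 lay above and 3 below of 70, with 29.6% of all genes excluding 1, and Atp5k (106 and 66.9 CPM, ratio 0.632) passed it. In these 3 classes nuclear members excluded 1, or passed 1.5-fold, no more often than all genes.

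The 2 acinar clusters stood far apart in mitochondrial mRNA. In the vehicle library the mitochondrial-encoded sum was 9837 CPM in acinar cluster 2 and 31533 CPM in acinar cluster 1, a ratio of 3.21 (3.12 to 3.29), and in the FAKi library the ratio was 4.19 (4.10 to 4.28). The log2 ratio of the vehicle library, 1.68, was 1.00 in cells under 1000 detected genes. The nuclear sum differed less, at 4623 and 6798 CPM in the vehicle library (ratio 1.47, 1.40 to 1.54) and by a ratio of 1.49 in the FAKi library. By complex the nuclear ratio of the vehicle library was 1.60 for complex I, 1.32 for complex III, 1.46 for complex IV and 1.41 for ATP synthase, while cytosolic ribosomal protein genes stood at 0.939.

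For single nuclear members in acinar cluster 1 against acinar cluster 2, vehicle ratios were 2.26 for Atp5a1 (1.48 to 3.42) and 2.38 for Cox8a (82.3 and 196 CPM, 1.73 to 3.25). Atp5k (ratio 0.782, 0.442 to 1.31) and Cox5a (ratio 0.821, 0.478 to 1.34) were within counting error in that library. In the FAKi library Atp5k was at 0.863 times (0.571 to 1.28) and Cox5a at 1.27 times (0.911 to 1.76). The clusters also differed in depth and in marker genes of other cell types. Cells of acinar cluster 1 had a median of 1480 UMIs and 248 genes in the vehicle library, against 7931 UMIs and 740.5 genes in acinar cluster 2. Ins2 was at 103583 CPM in the former and 4604 CPM in the latter, and the trypsinogen gene Prss2 at 50657 and 76971 CPM. The glucagon gene Gcg was at 2726 CPM in vehicle and 9114 CPM in FAKi cells of acinar cluster 1, and the 2 erythroid markers, highest there of all classes, summed to 6594 and 8952 CPM. How far RNA of other cells made up the respiratory chain values of acinar cluster 1 was not tested.

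Between the libraries, acinar cluster 1 (161 vehicle and 297 FAKi cells) had a mitochondrial sum of 1.02 times (1.00 to 1.05) and a nuclear sum of 1.10 times (1.04 to 1.15) the vehicle level. mt-Nd1 was at 1397 and 1028 CPM (ratio 0.736) and mt-Nd5 at 136 and 220 CPM (ratio 1.62, 1.17 to 2.29), the latter from 48 and 162 UMIs. Cox7a2 (82.2 and 136 CPM, ratio 1.66), Atp5o (150 and 87.1 CPM, ratio 0.580) and mt-Nd5 were among the members past 1.5-fold, where 20% of all genes of this cluster did. In the cells with at least 1000 detected genes the direction turned for Cox7a2, to a log2 ratio of -0.54, and for Atp5o, to 0.038. Intervals lay above 1 for 3 and below for 2 of 10 mitochondrial members and above for 5 and below for 1 of 31 nuclear members, with 42.7% of all genes excluding 1.

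These values rested on few cells. The 4 vehicle and 13 FAKi cells of acinar cluster 1 with at least 1000 detected genes held 20.9% and 40.5% of its UMIs. In the remaining cells the log2 ratio of the mitochondrial sum was 0.41 in place of 0.03, mt-Nd1 was at 0.937 and mt-Co1 at 1.17 times the vehicle level, and mt-Nd5 was at 1.86 times. Ins2 was at 1.47 times in those cells. With the deeper cells left out, mt-Co1 thus lay on the other side of 1.

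In acinar cluster 2 (86 and 114 cells) the mitochondrial sum was 0.783 times the vehicle level (0.763 to 0.803), the lowest ratio of the 10 classes, and the nuclear sum 1.08 times. These log2 ratios, -0.35 and 0.11, were smaller or turned when each cell had the same weight: they were -0.10 and -0.09 as a mean over cells, and -0.12 and -0.22 with cells thinned to 1000 UMIs. mt-Nd1 (507 and 335 CPM, ratio 0.661) and mt-Nd3 (127 and 75.0 CPM, ratio 0.589) passed 1.5-fold, where 11.3% of all genes did, and mt-Co1 was at 1270 and 900 CPM (ratio 0.709). Intervals lay below 1 for 9 of 10 mitochondrial members and above for 3 of 52 nuclear members with none below, with 39.6% of all genes excluding 1. Uqcrq, the ubiquinone-binding subunit of complex III, was the highest of its complex at 240 and 334 CPM (ratio 1.39).

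Several subunit genes have isoforms that follow the cell type more than the treatment. Cox6a2, the heart and muscle form of a complex IV subunit (chr7:128205435-128206387, minus strand, beside Itgad on the other strand), was at 119 and 104 CPM in β-cells, against 1.58 and 1.16 CPM in α-cells and 1.07 and 1.26 CPM in δ-cells. It had a UMI in 56.6% of vehicle β-cells, at a median depth of 30792.5 UMIs, and in 2.20% of vehicle α-cells at 13126 UMIs. Its ratio between the libraries in β-cells was 0.873 (0.835 to 0.913), and the 3 β-cell clusters were all lower, at 131 and 115, 118 and 102 and 38.9 and 31.4 CPM, although the interval of cluster 10 included 1. Its widely expressed partner Cox6a1 was within counting error in β-cells (101 and 105 CPM, ratio 1.04, 0.990 to 1.09).

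In other classes Cox6a2 reached 45.3 CPM in vehicle acinar cluster 1 and 32.5 CPM in vehicle macrophages. A single macrophage held 43.6% of the latter's UMIs, and a single endothelial cell of the FAKi library held 55.3% of the UMIs behind its 25.3 CPM. Free or doublet RNA of β-cells was not separated from these values.

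Pericytes were the class with Ndufa4l2 and Cox4i2, both known as isoforms induced by low oxygen. Ndufa4l2 (chr10:127514967-127517154, plus strand, beside Shmt2 on the other strand) was at 1690 CPM in vehicle pericytes and 1917 CPM in FAKi pericytes (ratio 1.13, 1.02 to 1.26), and 95.6% and 93.8% of the cells had a UMI. Fibroblasts had 81.4 and 106 CPM, and the other classes at most 11.3 CPM. Cox4i2 (chr2:152754173-152765037, plus strand) was at 478 and 580 CPM in pericytes (ratio 1.21, 0.993 to 1.47), and the other classes had at most 12.0 CPM. Ndufa4, the widely expressed partner of Ndufa4l2, was lower in pericytes (145 and 125 CPM) than in ductal cells (524 and 579 CPM) or endothelial cells (433 and 464 CPM). A low level was not particular to pericytes, with 69.8 and 85.6 CPM in acinar cluster 2, 108 and 129 CPM in acinar cluster 1 and 174 and 192 CPM in α-cells.

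Cox5a, a structural subunit of complex IV, was lower in endocrine and acinar cells than in the other classes. It was at 86.4 CPM in β-cells, 52.5 CPM in α-cells and 64.9 CPM in δ-cells of the vehicle library, and at 56.7 and 69.1 CPM in acinar clusters 1 and 2. Pericytes had 133 CPM and fibroblasts 137 CPM, against 294 CPM in endothelial cells, 290 CPM in macrophages and 227 CPM in ductal cells. The muscle forms Cox7a1 and Cox8b and the testis form Cox7b2 were at 4.03 CPM or less in each class, and the testis form Cox6b2 reached 18.8 CPM at most, in FAKi fibroblasts.

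**Figure D5:**
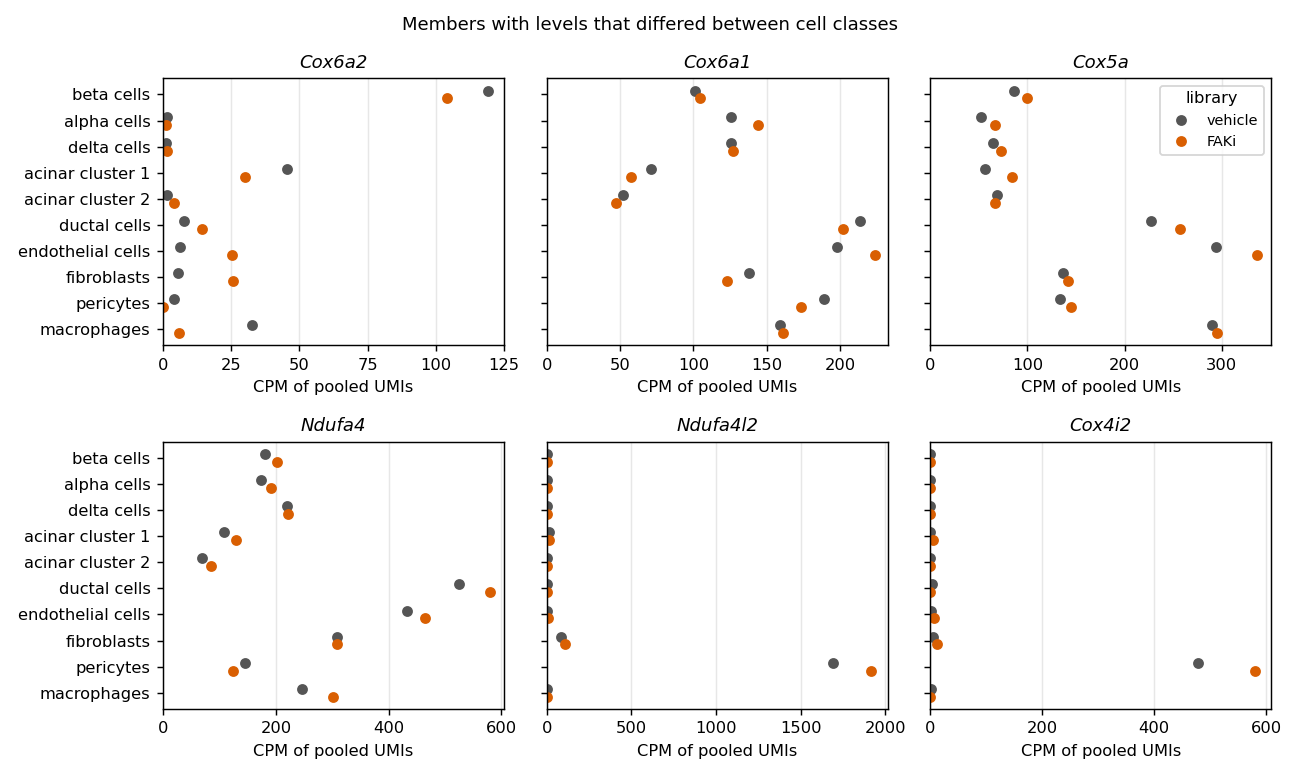
CPM of pooled UMIs (horizontal axis) of 6 nuclear members in the 10 cell classes, vehicle library in grey and FAKi library in orange, 1 value for each class and library. Cox6a2 is highest in β-cells, Ndufa4l2 and Cox4i2 are highest in pericytes, and Cox5a is higher in ductal cells, endothelial cells and macrophages than in the other 7 classes.

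β-cells and α-cells shared a library and were compared within it. The mitochondrial sum of β-cells was 0.836 times that of α-cells with vehicle and 0.798 times with FAKi, and the nuclear sum 0.806 and 0.840 times. By single genes the median log2 ratio in the vehicle library was -0.31 for the 13 mitochondrial members, -0.41 for 75 nuclear members and -0.52 for all genes, and cytosolic ribosomal protein genes were at 0.340 and 0.338 times. Cox6a2 in β-cells was at 75.3 times its α-cell level in the vehicle library (34.5 to 205). At the other end, Ndufa6 was at 0.412, Uqcrh at 0.530, Cox7c at 0.567 and Atp5g2 at 0.519 times the α-cell level, and Atp5g1 at 1.20 times.

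Complex II and the citrate cycle were level in β-cells. Complex II, which is encoded wholly in the nucleus and lies outside the members, had a sum of 0.982 times the vehicle level (0.951 to 1.01), and the enzymes of the citrate cycle 0.988 times (0.968 to 1.01). The proteins of the mitochondrial ribosome, which translates the RNA of the 13 genes, were at 1.07 times in sum. Their median log2 ratio was 0.09 over 78 genes beside -0.04 for all genes. Mpc1, a subunit of the pyruvate carrier, was at 50.8 and 62.9 CPM (ratio 1.24), the phosphate carrier Slc25a3 at 161 and 184 CPM (ratio 1.14) and the citrate cycle enzyme Fh1 at 40.1 and 50.2 CPM (ratio 1.25).

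Ucp2, an inner membrane carrier known to restrain ATP production in β-cells, was lower in the FAKi library. It was at 74.4 and 57.6 CPM in β-cells (ratio 0.774, 0.731 to 0.820), with ratios of 0.765 in α-cells, 0.547 in endothelial cells and 0.466 in fibroblasts, and its interval lay below 1 in the 7 classes where it had at least 100 UMIs. Atpif1, the inhibitor of ATP synthase, was at 200 and 212 CPM in β-cells (ratio 1.06).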

How the data were processed

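Counts were used as deposited: the authors aligned the reads to mm10 per the submitters' processing notes, kept cells under 8% mitochondrial UMIs, worked in Seurat 3.1, and deposited unscaled UMI counts for each gene and cell with their cluster and cell class labels. Cell Ranger made the matrices, and its version is left out because the sources used here give it with other digits attached. The authors also deposited the mitochondrial percent of each cell, and the share computed from the counts equalled it. SCRAN scaling and Scanorama integration served the authors' clustering and did not change the counts. The 8 GEO samples are 4 lanes of each of 2 libraries, so n was 1 for each condition, and all p-values were left out.

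For each class and library the counts of its cells were pooled and scaled to its total as CPM, the usual unit of relative abundance. Ratios of CPM carry exact conditional binomial intervals at 95%, shares carry Clopper-Pearson intervals, and the interval of a mitochondrial to nuclear ratio is a log-normal approximation. Intervals cover counting error only. Log2 ratios of single genes used a pseudocount of 1 CPM, and genes were counted as past 1.5-fold or as excluding 1 only where both groups together held 100 UMIs or more. Apart from hormone genes within a cluster and the overlapping mitochondrial genes, levels of single genes were not compared with each other, since tags come from the 3′ end. Doublets were called with scrublet for an alternative only (68 and 57 cells) and kept otherwise. Whether counting used strand is not given in the sources used here, so members with a gene on the other strand are uncertain.

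The named members were each mitochondrial gene, the isoforms of Cox4, Cox6, Cox7, Cox8 and Ndufa4, and the highest and lowest ratio in each complex. Members past 1.5-fold or with a regular direction across classes were added after their values were seen. 1 member is counted in sums and counts but not reported here. The members and lists were chosen with earlier results of these data known. The alternatives were CPM without the 20 most abundant genes, a mean over cells, cells thinned to 1000 UMIs, cells under 5% mitochondrial UMIs, no called doublets, cells with at least 1000 detected genes, a minimum of 20 UMIs and pseudocounts of 0.1 and 10 CPM, and, added after seeing the data, each nuclear member left out of the sums in turn and the acinar cells under 1000 detected genes. The binomial interval of a ratio was tested on simulated pooled counts that had no spread between cells, and the other intervals were not part of that test. Promoters and gene positions came from RefSeq and GENCODE annotation of GRCm38. Computation used python 3.11.15, numpy 2.4.6, pandas 2.3.3, scipy 1.17.1, scanpy 1.11.5 and matplotlib 3.10.9.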

Additional observations from a re-analysis of the deposited data

Results flagged for a closer look

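Among the 10 cell classes, the mitochondrial-encoded sum was lower in the FAKi library in 8 and higher in 2. It was 1.03 times the vehicle level in α-cells and 1.02 times in acinar cluster 1. These 2 classes drew attention because they moved the other way, and with 1 library for each condition the difference between classes was not tested. In α-cells the direction turned when CPM were computed without the 20 most abundant genes. In acinar cluster 1 it turned when cells were limited to those with at least 1000 detected genes.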

How the results depend on the processing

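All values here are log2 ratios unless said otherwise. CPM without the 20 most abundant genes moved the mitochondrial and nuclear sums of FAKi against vehicle from -0.027 to 0.019 and from 0.09 to 0.14 in β-cells, from 0.039 to -0.0088 and from 0.031 to -0.017 in α-cells, and from 0.03 to 0.20 and from 0.13 to 0.30 in acinar cluster 1, and the sums of acinar cluster 1 against acinar cluster 2 from 1.68 to 1.88 and from 0.56 to 0.76. A mean over cells gave -0.0059 and 0.10 in β-cells, 0.078 (mitochondrial) in α-cells, 0.21 and 0.21 in acinar cluster 1, and 1.44 (mitochondrial) between the acinar clusters. Thinning to 1000 UMIs gave -0.00013 and 0.11 in β-cells, 0.091 (mitochondrial) in α-cells, 0.22 (mitochondrial) in acinar cluster 1, and 1.36 and 0.38 between the acinar clusters. Cells under 5% mitochondrial UMIs gave -0.059 (mitochondrial) in β-cells, 0.073 and 0.0090 in α-cells, and 1.37 (mitochondrial) between the acinar clusters. Cells with at least 1000 detected genes gave -0.77 and -0.20 in acinar cluster 1, where 4 vehicle and 13 FAKi cells were left, and 1.91 and 0.97 between the acinar clusters. Cells under 1000 genes gave 0.41 and 0.20, and 1.00 and 0.44. Leaving out each nuclear member in turn gave 0.055 to 0.095 for the nuclear sum in β-cells. The count of nuclear members past 1.5-fold in β-cells was 0, and 1 without the 20 most abundant genes, 1 in cells under 5% mitochondrial UMIs and 1 with a minimum of 20 UMIs. Ndufaf4 in δ-cells turned to -0.12 when thinned, and in acinar cluster 1 Atp5o turned to 0.038 and Cox7a2 to -0.54 in cells with at least 1000 genes. Of 242 single-member ratios, 233 kept their sign without the 20 most abundant genes, 221 with a mean over cells, 195 when thinned, 215 under 5% mitochondrial UMIs, 232 with at least 1000 genes and 239 without called doublets. For these changes the cause was not tested, except that fewer cells or UMIs enter by construction where cells were left out or thinned. No paired analysis was possible because each condition was 1 library and its replicate numbers are lanes. No replicate could be left out for the same reason.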

Other observations

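T cells and B cells were too few with FAKi to be compared. Their mitochondrial-encoded share was 4.74% of UMIs in 168 vehicle T cells and 3.32% in 28 FAKi T cells, and 5.89% in 113 vehicle B cells and 3.60% in 9 FAKi B cells. The summed level of the 3 T-cell markers was 905 CPM with vehicle and 55.8 CPM with FAKi in the cells labelled T, so the FAKi cells under that label hardly carried its markers. Over all cells the number of mitochondrial-encoded UMIs for each nuclear subunit UMI was 3.65 with vehicle and 3.62 with FAKi, a smaller gap than in most single classes, and the class sizes differed between the libraries.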
